A study of Mus musculus with 6 samples.

Results

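Ptp4a2, a small tyrosine phosphatase, is described here with 9 other protein tyrosine phosphatases of T cells. In regulatory T cells (Treg) without HDAC9 its signal was lower by 3 of its 4 array measures and differed little by the brightest. Members were found by gene symbol in the platform annotation of an Affymetrix array. Of 10 listed genes, 8 had probe sets annotated to that gene alone, 19 of the 22626 probe sets tested. A probe set is a group of short probes that together read 1 transcript. The 4 probe sets of Ptp4a1 are annotated to the pseudogene Gm13363 as well, so they are given separately and assigned to neither gene. Ptpn7, which acts on MAP kinases, had no matching probe set and was not analysed here. Ptp4a2 was chosen by its measured difference, since probe set 1435129_at passed the test of this same comparison, and that difference is given as a description. The other members were listed for their function.

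The study profiled CD4+CD25+ T cells isolated with magnetic beads from mice. A group of 3 samples came from HDAC9-/- animals and a group of 3 from wild type animals, all of the C57BL/6 strain. HDAC9 is a class IIa histone deacetylase. The labels name no treatment and give neither the age of the mice nor the deleted exons, and they do not say whether mice were pooled, so the spread behind each p-value is that between these 6 samples and may be technical. Each sample was read on 1 array, and precision is limited by that number.

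Protein tyrosine phosphatases remove the phosphate groups that kinases place on tyrosines, and in T cells they set the threshold of signalling through the antigen receptor and the cytokine receptors. The PRL family (Ptp4a1, Ptp4a2 and Ptp4a3) consists of small phosphatases that carry a lipid (prenyl) anchor, sit at membranes and bind the CNNM magnesium transporters. The classical members act on better known substrates. CD45 (Ptprc) activates the Src family kinases Lck and Fyn, SHP-1 (Ptpn6) and Ptpn22 restrain receptor-proximal kinases, SHP-2 (Ptpn11) carries growth factor and cytokine signals, and Ptpn2 and Ptpn1 act on JAK kinases and STAT factors.

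Wild type replicate 3 stood apart from the other arrays, with a mean correlation of 0.991 against 0.994 to 0.996 and a median of 5.69 (log2) where the others had 5.77 to 5.81. Of 6 markers of Treg and CD4 T cells, 3 had positive and 3 negative differences, and none passed (limma). Foxp3, the defining transcription factor of Treg, read 10.34 ± 0.05 on the wild type arrays and 10.37 ± 0.05 on the HDAC9-/- arrays (log2, SD, n = 3), and Il2ra (CD25) read 9.48 ± 0.05 and 9.39 ± 0.05. The Il2ra groups did not overlap (difference -0.085, limma, adjusted p = 0.712). Cd4 and Cd3e had differences of -0.069 and -0.047. Ctla4 and Ikzf2 had 0.10 and 0.21 with overlapping groups, and Ikzf2 was below the array median. Markers of myeloid cells had positive differences for 8 of 8 genes, beside 6697 of all 12393 genes by their brightest probe set. Their mean log2 level was 8.20 to 8.72 on the wild type arrays against 8.72 to 9.25 on those of HDAC9-/- cells, with wild type replicate 3 and HDAC9-/- replicate 3 both at 8.72. S100a8 and S100a9 were bright, with differences of 0.96 and 1.01 (limma, adjusted p = 0.454 and 0.445) and groups that did not overlap. Groups did not overlap for Cd68 (0.46) and Cst3 (0.33) either, beside 17.0% of all probe sets. They overlapped for Lyz2, Csf1r, Fcer1g and Itgam, and Itgam was below the array median. The B cell markers had positive differences for 4 of 4 genes, and their mean level overlapped between genotypes (7.44 to 7.68 and 7.24 to 8.03). Those of CD8 T and natural killer cells were positive for 4 of 5 genes, and their mean level overlapped too (7.54 to 7.64 and 7.55 to 8.07). Among them the groups did not overlap for Eomes (difference 0.24, limma, adjusted p = 0.539). All 4 red cell and platelet markers lay below the array median. Gapdh control probe sets near the 3-prime end exceeded those near the 5-prime end, a sign of how intact the RNA was, by 0.03 to 0.11 on the wild type arrays against 0.15 to 0.28 on those of HDAC9-/- cells. For actin (Actb) the same measure was 0.33 to 0.46 against 0.42 to 0.60 and overlapped. Leukocytes of other types also carry most of these phosphatases, and the part of other cells or of RNA integrity in the values below was not tested. In bulk samples, fewer cells of a type and less RNA per cell cannot be told apart.

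The promoter of Ptp4a2 is shown because this gene carried the largest difference among the members. It covers chr4:129820229-129820528 on the plus strand (RefSeq, GRCm38.p6), 250 bases before to 50 after the annotated start, with every CG dinucleotide in capitals.

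Ptp4a2: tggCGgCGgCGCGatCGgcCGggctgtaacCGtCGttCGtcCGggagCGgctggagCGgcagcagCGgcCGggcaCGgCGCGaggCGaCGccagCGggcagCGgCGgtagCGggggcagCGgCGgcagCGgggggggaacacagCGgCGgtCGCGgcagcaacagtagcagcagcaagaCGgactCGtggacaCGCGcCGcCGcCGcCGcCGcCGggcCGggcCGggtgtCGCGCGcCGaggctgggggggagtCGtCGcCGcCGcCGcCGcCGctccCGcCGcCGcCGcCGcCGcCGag

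This window holds 60 CG dinucleotides against a median of 7.00 over the 32851 promoters of the table. Its G and C content is 81.7%, higher than that of 99.4% of those promoters. Promoters of 8 listed genes were compared, without those of Ptpn2 and Ptp4a3. They ranged from 33.7% for a start of Ptprc to the 81.7% of Ptp4a2, and the Ptp4a1 promoter had 72.3% with 45 CG dinucleotides. Of 4 motifs searched on both strands, the Ptp4a2 window held none. They were the GC box GGGCGG (in 35.7% of all promoters), the CCAAT box CCAAT (37.4%), the TATA box TATAAA (13.6%) and the cyclic AMP response element TGACGTCA (1.79%). The absence of a match says only that these letters are not in this window. The arrays measured transcript levels and not events at the start site.

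Ptp4a2 was lower in HDAC9-/- Treg in 3 of its 4 probe sets, by unequal amounts, while the brightest probe set differed little. Probe set 1435129_at read 8.67, 8.85 and 8.72 (log2) on the wild type arrays, in the order of replicates 1 to 3 as in all such values below, and 7.44, 7.59 and 7.53 on the HDAC9-/- arrays. The genotypes were separated by a gap of 1.08, and each group spanned at most 0.18. The means were 8.75 ± 0.09 and 7.52 ± 0.07 (SD, n = 3), a difference of -1.22 (standard error 0.08, 95% interval -1.41 to -1.03), so HDAC9-/- samples held 42.8% of the wild type signal. In the limma fit over all probe sets its adjusted p was 0.0113, and it ranked 3 of 22626 by p. Over the array 3 probe sets passed an adjusted p of 0.05 (0.0133% of those tested). The comparison that gave this p also chose the gene.

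The other probe sets of Ptp4a2 show how far this difference held within the gene. Probe set 1420612_s_at read 8.28, 8.15 and 8.47 on the wild type arrays and 7.96, 7.74 and 7.53 on the HDAC9-/- arrays, with a difference of -0.56 (standard error 0.13, 95% interval -0.87 to -0.24; limma, adjusted p = 0.422). Probe set 1460707_at read 10.92, 10.84 and 11.13 on the wild type arrays and 10.70, 10.55 and 10.52 on the HDAC9-/- arrays, with a difference of -0.38 (standard error 0.10, 95% interval -0.61 to -0.14; limma, adjusted p = 0.439). In both, every HDAC9-/- array lay below every wild type array, by gaps of 0.19 and 0.14, and neither passed over all probe sets. The brightest probe set, 1420613_at, read 11.69, 11.88 and 11.51 on the wild type arrays and 11.43, 11.72 and 11.76 on the HDAC9-/- arrays. Its groups overlapped widely, and the difference of -0.055 had a 95% interval from -0.36 to 0.25, which does not reach the -1.22 of 1435129_at. The sign turned to 0.037 without wild type replicate 2 and to 0.046 without HDAC9-/- replicate 1.

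**Figure D1:**
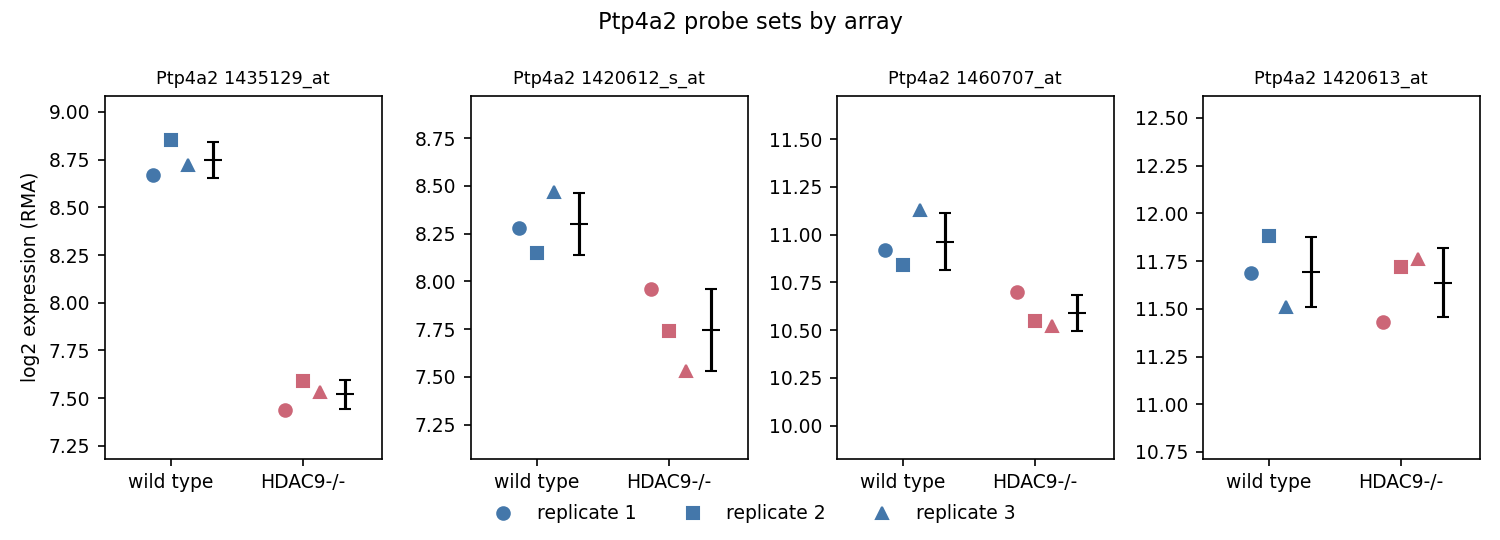
Log2 expression (vertical axis, same span in each panel) of the 4 Ptp4a2 probe sets on each array, wild type in blue and HDAC9-/- in red, with the marker shape giving the replicate number and the bar the mean ± SD (n = 3). The genotypes are separated in 1435129_at (difference -1.22), 1420612_s_at (-0.56) and 1460707_at (-0.38), and they overlap in 1420613_at (-0.055).

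Set against each other on the same array, the probe sets of Ptp4a2 stood in a different relation in the 2 genotypes. The value of 1435129_at minus that of 1420613_at was -3.02, -3.03 and -2.79 on the wild type arrays and -3.99, -4.12 and -4.23 on the HDAC9-/- arrays, a shift of -1.17. The shift against 1460707_at was -0.85 and that against 1420612_s_at was -0.67. The differences within Ptp4a2 thus spanned 1.17. This span holds the difference that chose the gene and is given as a description. The positions of the probes in the transcripts of Ptp4a2 were not used here. The Gapdh 3-prime to 5-prime difference separated the genotypes too (0.03 to 0.11 and 0.15 to 0.28), that of actin overlapped (0.33 to 0.46 and 0.42 to 0.60), and their part in the unequal differences was not tested.

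The call of 1435129_at held in 1 of 6 fits that each left out 1 array, although the difference stayed between -1.26 and -1.17 in all 6. Its adjusted p (limma) was 0.107 without wild type replicate 1, 0.0708 without wild type replicate 2, 0.0985, 0.113 and 0.123 without HDAC9-/- replicates 1, 2 and 3, and 0.0220 without wild type replicate 3. Leaving out an array cannot make separated groups overlap, so their separation in these fits adds no information.

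The other PRL phosphatases had no difference of that size. Ptp4a3, the member best known from metastatic tumours, read 9.33, 9.32 and 8.92 on the wild type arrays and 9.32, 9.23 and 9.31 on the HDAC9-/- arrays in its brighter probe set, 1418181_at. Wild type replicate 3 was the low array here. The difference was 0.095 (95% interval -0.19 to 0.38; limma, adjusted p = 0.817) and turned to -0.041 without that array and to -0.015 with array weights. The dim probe set 1418182_at read 4.31, 4.52 and 4.33 on the wild type arrays and 4.65, 4.78 and 4.60 on the HDAC9-/- arrays. All HDAC9-/- arrays were higher, by a gap of 0.080, with a difference of 0.29 (95% interval 0.080 to 0.50; limma, adjusted p = 0.487) that did not pass. Its mean lay at the percentile 34.9 of the array, and RMA understates differences of dim probe sets.

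The 4 probe sets shared by Ptp4a1 and Gm13363 had differences from -0.059 to 0.27, and none passed. Probe set 1455002_at read 8.15, 8.11 and 8.24 on the wild type arrays and 8.39, 8.51 and 8.41 on the HDAC9-/- arrays. The genotypes did not overlap, and the difference was 0.27 (standard error 0.07, 95% interval 0.10 to 0.45; limma, adjusted p = 0.441). The brightest of the 4, 1438657_x_at, read 11.02, 11.07 and 11.30 on the wild type arrays and 11.04, 11.10 and 11.12 on the HDAC9-/- arrays, a difference of -0.040 that turned to 0.044 without wild type replicate 3. The other two, 1449322_at and 1419024_at, had differences of -0.059 and 0.042 with overlapping groups.

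CD45, the receptor phosphatase on all nucleated blood cells, was among the brightest transcripts of the array and differed by a small amount. The 1 probe set of Ptprc read 13.11, 13.10 and 13.18 on the wild type arrays and 13.05, 13.04 and 13.08 on the HDAC9-/- arrays. The arrays did not overlap, by a gap of 0.023, but the difference of -0.073 had a 95% interval from -0.22 to 0.077 (limma, adjusted p = 0.742). This probe set gives 1 value for the gene and does not resolve its splice forms.

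Neither SH2 domain phosphatase passed. Ptpn6, which is recruited by inhibitory receptors, was slightly lower in both probe sets. In 1460188_at it read 9.74, 9.57 and 9.72 on the wild type arrays and 9.55, 9.58 and 9.49 on the HDAC9-/- arrays, with a difference of -0.14 (95% interval -0.32 to 0.041; limma, adjusted p = 0.625) and groups that overlapped at wild type replicate 2. In 1456694_x_at the difference was -0.072. Ptpn11, which supports signalling through RAS and MAP kinases, read 9.04, 8.85 and 8.93 on the wild type arrays and 8.97, 9.02 and 9.05 on the HDAC9-/- arrays in its brightest probe set, 1451225_at, with a difference of 0.075 (95% interval -0.10 to 0.25). Its 2 dim probe sets disagreed in sign, at 0.093 for 1421196_at and -0.20 for 1427699_a_at, and their groups overlapped.

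The phosphatases of JAK kinases and STAT factors had small differences in both directions. Ptpn2, which restrains interleukin-2 and interferon signalling, has 4 probe sets. The brightest, 1438562_a_at, read 10.22, 10.12 and 10.18 on the wild type arrays and 10.17, 10.22 and 10.28 on the HDAC9-/- arrays, a difference of 0.052 (95% interval -0.11 to 0.21; limma, adjusted p = 0.820). In 1417140_a_at the difference was 0.016, and it turned to -0.0098 when array medians were aligned. The dim probe sets 1425197_at and 1425198_at had -0.16 and -0.14. In 1425197_at wild type replicate 3 read 4.20 against 5.23 and 5.16 in the other wild type arrays, and the difference was -0.49 without it. Ptpn1, the close relative of Ptpn2 that is anchored at the endoplasmic reticulum, had differences of 0.055 in 1417068_a_at and -0.054 in 1438670_at. Their groups overlapped, and the 95% intervals ran from -0.21 to 0.32 and from -0.23 to 0.12.

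Ptpn22, which works with the kinase Csk against receptor-proximal signalling, read 10.68, 10.57 and 10.72 on the wild type arrays and 10.59, 10.51 and 10.62 on the HDAC9-/- arrays. The groups overlapped, and the difference was -0.086 (95% interval -0.26 to 0.088; limma, adjusted p = 0.736).

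**Figure D2:**
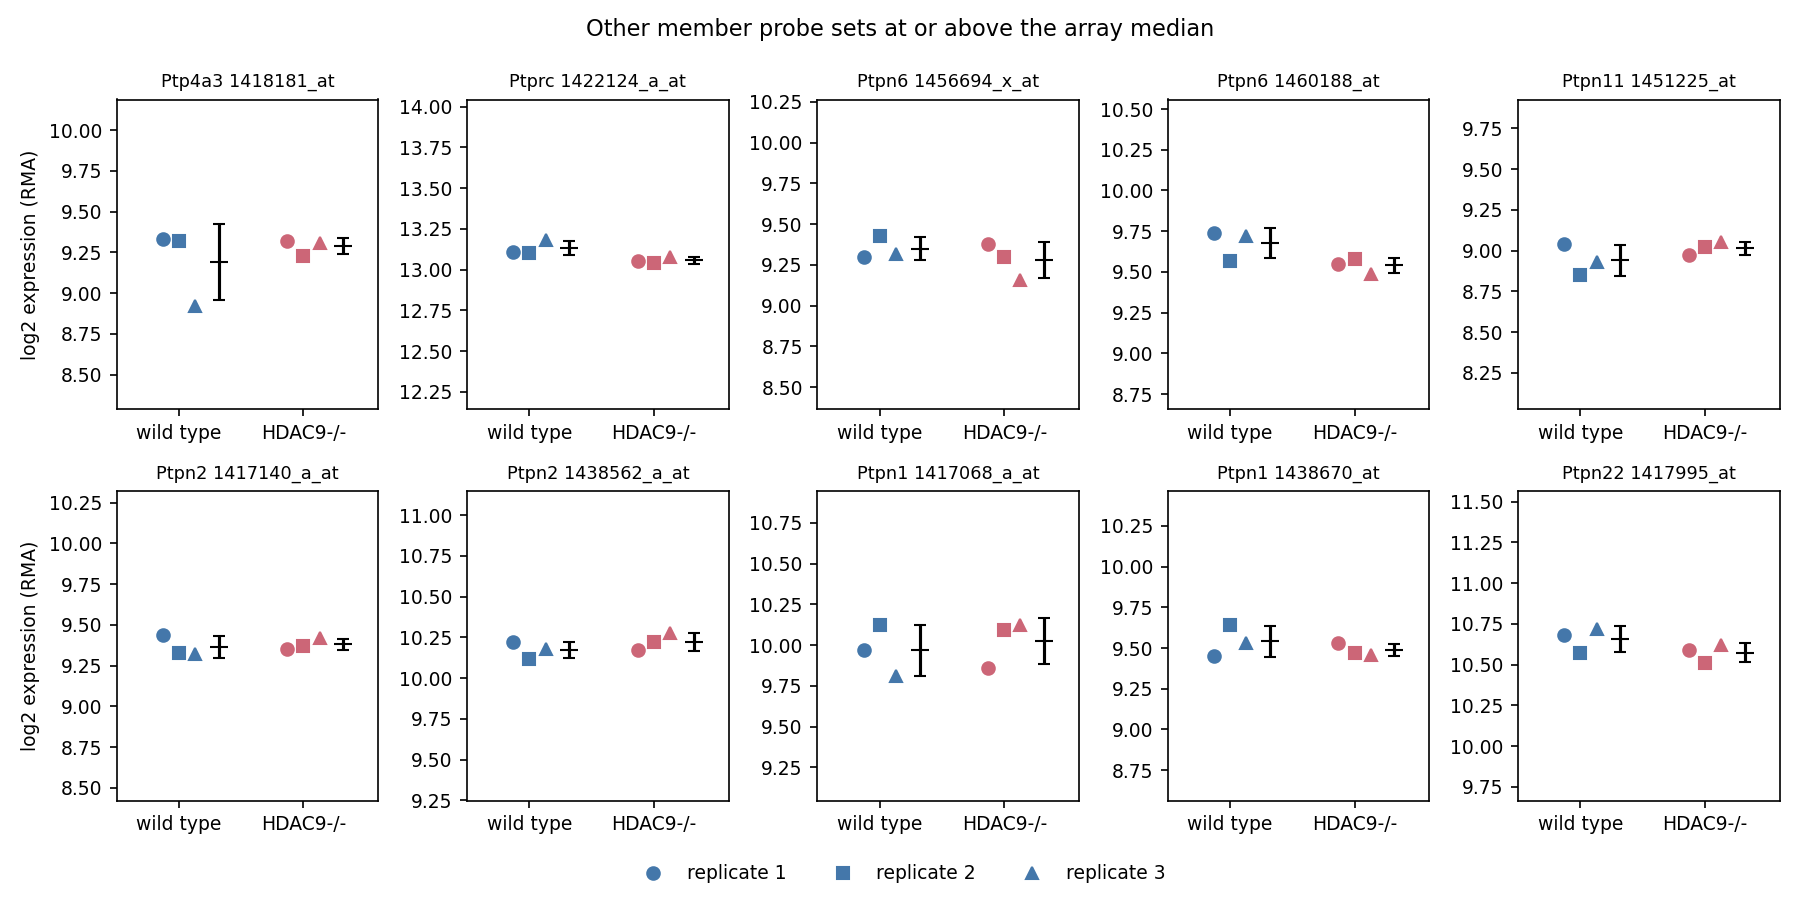
Log2 expression (vertical axis, same span in each panel as in the Ptp4a2 plot) on each array for the 10 probe sets of the members other than Ptp4a2 that lay at or above the array median, wild type in blue, HDAC9-/- in red, marker shape for replicate, bar for mean ± SD (n = 3). Differences run from -0.14 to 0.095, and the low wild type triangle in Ptp4a3 is replicate 3 (8.92).

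Read together, 1 of the 19 member probe sets passed over all probe sets, the Ptp4a2 one that chose the gene. At an unadjusted p below 0.05 (limma) there were 3 lower, against 3.23% of all probe sets, and 1 higher (Ptp4a3) against 5.55%. All 3 lower were of Ptp4a2, the gene chosen by its difference in this comparison, and probe sets of 1 gene are not independent. The 15 of the other genes had 0 lower. Genotypes that did not overlap were found for 5 of the 19, against 17.0% of all probe sets. Of these 5, 3 were of Ptp4a2, the gene chosen by its difference, and the other genes had 2 of 15. The 15 probe sets of the 7 other genes split into 8 negative and 7 positive differences around a median of -0.054, beside 0.0078 over all probe sets tested. Of these 15, 0 passed (limma; 1 at an unadjusted p below 0.05), and their smallest adjusted p was 0.487. The 10 at or above the array median had 95% intervals that lay between -0.32 and 0.38, so a change of the size seen in 1435129_at lay outside all of them.

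**Figure D3:**
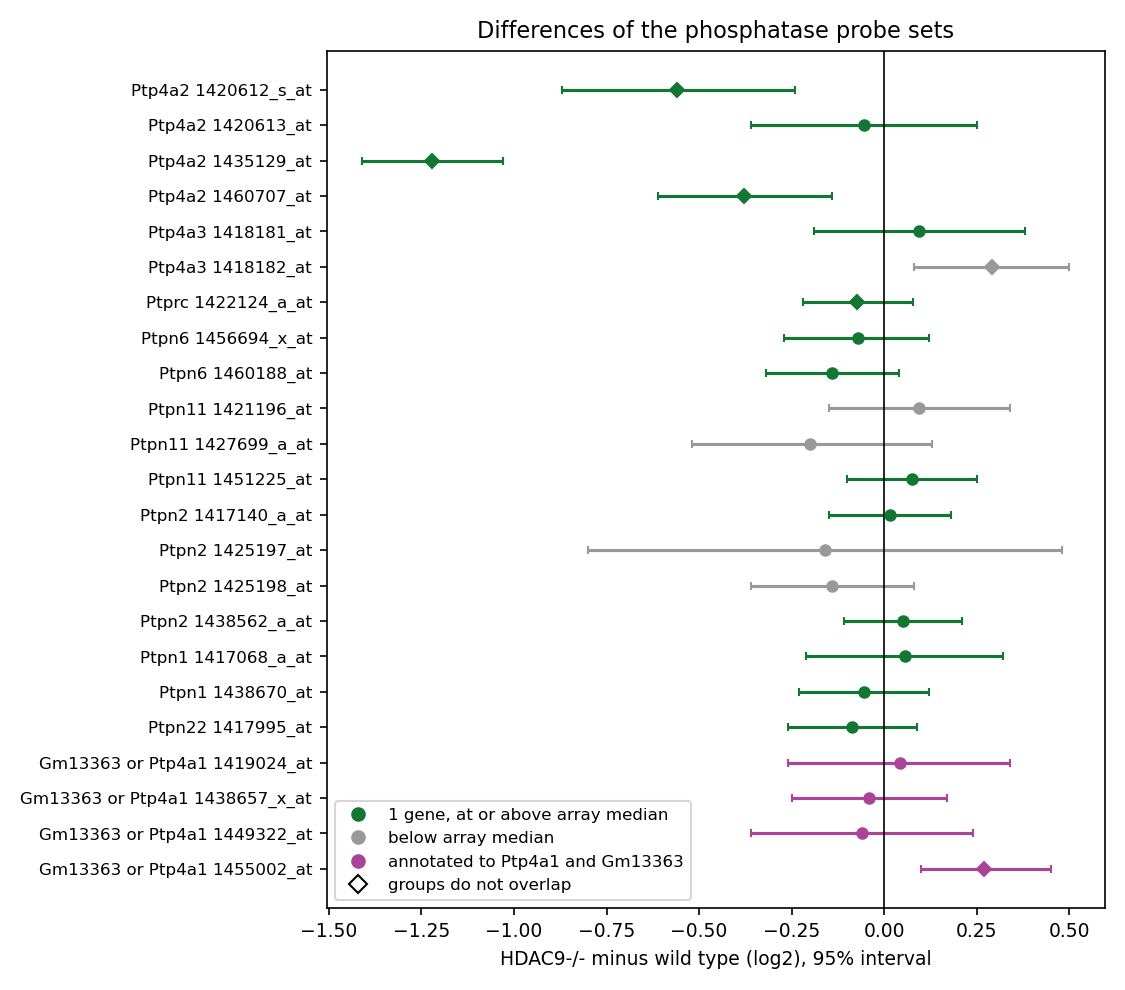
HDAC9-/- minus wild type (horizontal axis, log2) with the 95% interval from limma for each of the 19 member probe sets and the 4 shared by Ptp4a1 and Gm13363, coloured by annotation and brightness, with diamonds where the genotypes do not overlap. The 3 separated Ptp4a2 probe sets lie at -1.22, -0.56 and -0.38, and the others lie between -0.20 and 0.29.

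Kinases and substrates on which these phosphatases act showed small differences in the brightest probe set of each gene. Some other probe sets of the same genes differed more (Syk and Cd247 below, Jak1 in the closing section). None of the 20 genes measured from this list passed (limma; 0 at an unadjusted p below 0.05, against 8.74% of all genes by their brightest probe set). Negative differences were found for 15 and positive for 5, beside 5696 and 6697 of all 12393 genes, and the median was -0.041 beside 0.013. Fyn, a Src family kinase that CD45 activates, read 10.61 ± 0.03 on the wild type arrays and 10.51 ± 0.10 on the HDAC9-/- arrays (SD, n = 3, difference -0.10). Its other probe set, 1448765_at, had 0.037. Cd247, the zeta chain of the receptor complex, had -0.075, with -0.18 to 0.085 in its other probe sets. The groups did not overlap in the lowest, 1452539_a_at (limma, unadjusted p = 0.0431, adjusted p = 0.557). Stat5a, which carries interleukin-2 signals, had 0.11, with -0.12 in its other probe set. Syk, a kinase of B and myeloid cells related to Zap70, had 0.19, which turned to -0.0020 without HDAC9-/- replicate 1. In its other probe sets Syk had 0.30 in 1418262_at (95% interval 0.11 to 0.50; limma, unadjusted p = 0.00819, adjusted p = 0.442), where the groups did not overlap, and -0.15 in 1425797_a_at.

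Other tyrosine phosphatases of the same superfamily did not pass either. Of 17 genes measured, the difference was positive in 11 and negative in 6, beside 6697 and 5696 of all 12393 genes. The median was 0.078 beside 0.013 (limma, 0 passed; 0 at an unadjusted p below 0.05, against 8.74% of all genes). Acp1, the low molecular weight phosphatase, read 9.45 ± 0.08 on the wild type arrays and 9.63 ± 0.07 on the HDAC9-/- arrays (SD, n = 3), a difference of 0.18, and its 5 other probe sets had 0.032 to 0.24. Ptpn13, a large scaffold phosphatase, had -0.17, and -0.46 in its dim second probe set. Ptpn4 (0.28, dim) and Ptprv (0.12) complete the 4 with the smallest p-values.

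The dual specificity phosphatases, several of which act on MAP kinases, and the CDC25 cell cycle phosphatases did not pass. Of 16 genes measured, the difference was positive in 10 and negative in 6, beside 6697 and 5696 of all 12393 genes, and the median was 0.17 beside 0.013. At an unadjusted p below 0.05, 3 were higher and 0 lower (limma), beside 6.12% higher and 2.62% lower over all genes. Ptpmt1, a phosphatase of mitochondria, read 8.35 ± 0.06 on the wild type arrays and 8.59 ± 0.03 on the HDAC9-/- arrays (SD, n = 3, difference 0.24; limma, adjusted p = 0.442). Dusp22, which restrains Lck in T cells, read 6.36 ± 0.20 and 6.73 ± 0.12 (difference 0.37, adjusted p = 0.496). Cdc25b, which activates cyclin-dependent kinases before mitosis, had 0.21, and Dusp3 had 0.19 in a dim probe set and -0.52 in another, where wild type replicate 3 read 5.02 against 3.78 and 3.91 in the other wild type arrays. The myeloid markers were higher on average in the same samples (median difference 0.41), and their part in these values was not tested.

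Partners and receptors that recruit these phosphatases had differences in both directions. Of 19 genes measured, the difference was positive in 11 and negative in 8, beside 6697 and 5696 of all 12393 genes, and the median was 0.057 beside 0.013. None passed (limma; 1 at an unadjusted p below 0.05, against 8.74% of all genes). That gene was Pilra, an inhibitory receptor of myeloid cells, which was dim and read 4.71 ± 0.04 on the wild type arrays and 4.95 ± 0.05 on the HDAC9-/- arrays (SD, n = 3, difference 0.23; limma, adjusted p = 0.449). Lair1, a collagen receptor that recruits SHP-1, had 0.34 in a dim probe set, the adaptor Dok1 0.15 and Cd5, a negative regulator of the antigen receptor, -0.11. The magnesium transporters that bind PRL phosphatases had -0.19 (Cnnm4), 0.079 (Cnnm1), -0.029 (Cnnm3) and 0.011 (Cnnm2), and 3 of these 4 genes, all but Cnnm3, read below the array median. Ptprcap, the protein associated with CD45, read 11.19 ± 0.07 and 11.15 ± 0.04.

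**Figure D4:**
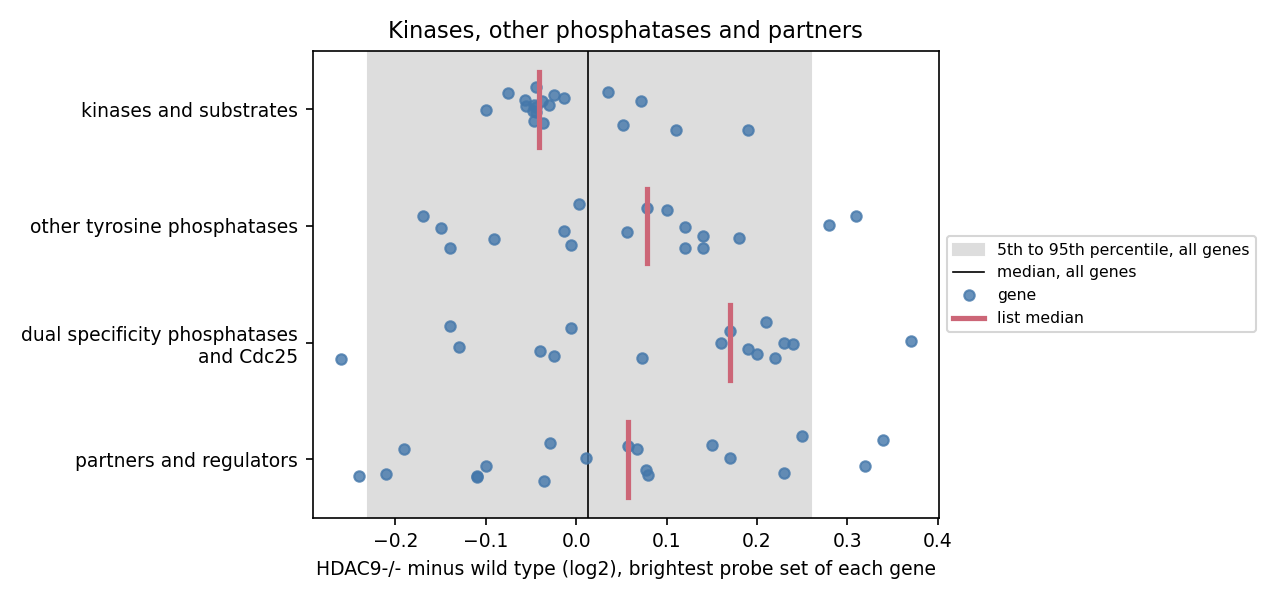
HDAC9-/- minus wild type (horizontal axis, log2) of the brightest probe set of each gene in 4 lists, 1 point a gene, scattered vertically within its list for legibility. The red line is the list median (-0.041, 0.078, 0.17 and 0.057 from top to bottom), the black line the median of all genes (0.013) and the grey band the 5th to 95th percentile of all genes (-0.23 to 0.26).

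The genes whose pattern was most like that of 1435129_at over the 6 arrays, by Pearson correlation among 10359 probe sets at or above the array median, were Il7r (0.9941), Tspan13 (0.9923), Agpat1 (0.9889), Ap4s1 (0.9870) and Xiap (0.9833). The 6 arrays fall into the 2 genotypes, so these values mostly rank how cleanly a gene separated them. Il7r, which encodes the receptor through which interleukin-7 keeps T cells alive, read 9.28, 9.27 and 9.28 on the wild type arrays and 7.80, 8.01 and 8.02 on the HDAC9-/- arrays in probe set 1448576_at, and differed by -0.22 in its other one. The tetraspanin gene Tspan13 had -0.71 and -0.65 in its 2 probe sets. Ap4s1, a subunit of an adaptor complex of intracellular transport, had -0.45, and Agpat1, an enzyme of phospholipid synthesis, had -0.25 in 1 probe set and -0.0045 in the other. Xiap, an inhibitor of caspases, had -0.23, with -0.40 to 0.087 in its 5 other probe sets.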

How the data were processed

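RNA of 6 samples was hybridised to 1 Affymetrix array each. The deposited values are log2 expression, for which the submitters' processing notes name RMA, run by the authors with a version and settings that the notes leave out. RMA compresses differences between dim probe sets. Groups came from the sample titles. All columns belonged to a sample. After removal of 64 control probe sets, 22626 were tested, with genotype alone, in limma 3.58.1 (R 4.3.3, lmFit and eBayes) with Benjamini-Hochberg adjustment over all of them and a threshold of 0.05. The fit was tested on simulated data. Symbols came from the platform annotation, updated through Entrez for 20351 probe sets with the RefSeq table of GRCm38.p6; 20380 probe sets carry 1 symbol. Each list gene was read by its probe set with the highest mean; list genes that had none of 1 symbol were not analysed here. Named were all members, the 4 list genes with the smallest p, any list gene that passed, and the 5 genes most like Ptp4a2. Others were chosen after their values were seen. These were the other probe sets of Dusp3, Ptpn13, Acp1, Fyn, Cd247 and Syk, the myeloid markers given by name, Ctla4, Ikzf2 and Eomes. The Cnnm genes, Ptprcap and the genes of the closing section were also chosen in this way. The members and lists were chosen with earlier results of these data known. Same-numbered samples did not deviate together (r = 0.0365, 0.0991 and -0.249), so no pairing was used. Alternatives were another normalization, alignment of medians, a filter on dim probe sets, another variance prior, array weights, the replicate block, other thresholds and leaving out each array. Motifs were searched by exact letters. Plots used matplotlib 3.10.9 and Python 3.11.15.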

Additional observations from a re-analysis of the deposited data

How the results depend on the processing

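The count of probe sets called over the array (3) was 15 with the trended and robust prior, 6 with array weights, 5 at an adjusted p of 0.10, 0 with the replicate block and 1 when each gene kept 1 probe set, and it ran from 0 to 6 when 1 array was left out. The count of member probe sets called (1) was 0 with the replicate block and also when each gene kept 1 probe set (whose Ptp4a2 probe set is 1420613_at), 4 at an unadjusted p below 0.05, 5 by groups that do not overlap, and 0 to 1 when 1 array was left out. With the replicate block the difference of 1435129_at was -1.22 with an adjusted p of 0.292 (1.63e-04 to 0.292 over its alternatives), and it ran from -1.26 to -1.17 when 1 array was left out. The labels do not say whether samples of equal number share anything else, so what the loss of the call with the block means cannot be told. Of 257 refits of the other differences that left out no array, 246 kept sign and side of the threshold. With array weights the sign turned for Ptp4a3 1418181_at (-0.015), Ptpn2 1417140_a_at (-0.0051; -0.0098 with array medians aligned) and, of the probe sets shared by Ptp4a1 and Gm13363, 1438657_x_at (0.023) and 1449322_at (0.042). With the mean of all probe sets it turned for Ptpn11 (-0.0089) and Ptpn2 (-0.059). Ptp4a2 had -0.55 in that setting and did not pass (limma, adjusted p = 0.0635). The trended and robust prior called Tspan13 and Ap4s1, array weights called Tspan13, and Il7r lost its call with the replicate block and in 5 of 6 fits without 1 array (all but that without wild type replicate 3). When 1 array was left out, ranges that crossed 0 were -0.15 to 0.046 for Ptp4a2 1420613_at, -0.041 to 0.17 for Ptp4a3 1418181_at, -0.0058 to 0.054 for Ptpn2 1417140_a_at, -0.49 to 0.021 for Ptpn2 1425197_at, -0.024 to 0.14 for Ptpn1 1417068_a_at, -0.042 to 0.17, -0.093 to 0.044 and -0.14 to 0.085 for the shared probe sets 1419024_at, 1438657_x_at and 1449322_at, and -0.0020 to 0.39 for Syk. The causes were not tested. Dim probe sets, 5 of the 19, could not be set apart from background with these values.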

Other observations

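Ceacam1, an adhesion receptor that recruits SHP-1 and SHP-2 and is carried by activated T cells and by myeloid and B cells, had positive differences in 7 of its 8 probe sets (median 0.32), and none passed (limma; 4 at an unadjusted p below 0.05, all higher, beside 5.55% of all probe sets). Probe set 1425675_s_at read 4.01, 4.43 and 3.86 on the wild type arrays and 4.99, 4.73 and 4.57 on the HDAC9-/- arrays, a difference of 0.66 (limma, adjusted p = 0.434). Probe set 1450494_x_at read 5.83, 6.05 and 5.45 on the wild type arrays and 6.25, 6.48 and 6.14 on the HDAC9-/- arrays, a difference of 0.52. The genotypes did not overlap in either. The 4 at an unadjusted p below 0.05 (limma) all carry the suffix _x_at or _s_at. Probe sets of 1 gene are not independent, so they do not count as separate results. The brightest, 1460681_at, had 0.17 with overlapping groups. Groups also overlapped in 1452532_x_at and 1427711_a_at (both 0.12) and in 1427712_at (-0.067). Of the 8, 6 lay below the array median. The mean level of the myeloid markers was 8.20 to 8.72 on the wild type arrays against 8.72 to 9.25 on those of HDAC9-/- cells, and its part was not tested.

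Jak1, a kinase that Ptpn2 acts on, read 8.77, 9.73 and 8.39 on the wild type arrays and 7.92, 8.55 and 8.41 on the HDAC9-/- arrays in probe set 1433804_at (difference -0.67, 95% interval -1.49 to 0.14; limma, adjusted p = 0.609). Wild type replicate 2 was the high array. Its brightest probe set differed by -0.057, and the third, 1433803_at, by -0.15, with 10.53, 10.31 and 10.42 on the wild type arrays against 10.30, 10.29 and 10.21 on those of HDAC9-/- cells, which did not overlap and did not pass.

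Pdcd1, the inhibitory receptor PD-1 that recruits SHP-2, read 7.47 ± 0.29 on the wild type arrays and 7.23 ± 0.10 on the HDAC9-/- arrays (SD, n = 3), a difference of -0.24 that did not pass (limma, adjusted p = 0.654).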
